A study of Homo sapiens with 12 samples.

Results

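The genes described here build cholesterol and fatty acids or sense, move and export sterols, and they were followed in Ect1 cells, an established human line of ectocervical epithelium immortalised with papillomavirus oncogenes. Members were taken by gene symbol from a list of 35 genes, older symbols included (SC4MOL is now MSMO1 and SC5DL is now SC5D). Of these, 34 had a probe set of their own among the 19682 genes measured, with 74 probe sets in all, and the probe set whose mean over the 12 arrays was highest stood for its gene. FADS1 was left without a value because the probe sets that name it also name FADS3. Confluent cells received fresh medium only (control), medium holding 10% seminal plasma pooled from men (by volume), or medium holding 5 ng/ml of recombinant TGFB3, a cytokine of the transforming growth factor beta family, and RNA was taken after 10 h. All 3 groups shared a serum-free keratinocyte medium with epidermal growth factor, pituitary extract and added calcium chloride, and the 4 replicates of a group each pooled a separate set of 4 wells of this 1 cell line. RNA was read on Affymetrix Human Genome U133 Plus 2.0 arrays, and precision is limited by how many arrays there are. Signals are on the linear scale of the deposited table, and log2 fold changes are differences of mean log2 signals.

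Cholesterol is made from acetyl-CoA through mevalonate, isoprenoid diphosphates, squalene and lanosterol. SREBP transcription factors, encoded by SREBF1 and SREBF2, are released from the endoplasmic reticulum when its sterol content is low, and they then turn on the genes of sterol and fatty acid synthesis and of lipoprotein uptake. LXR nuclear receptors respond to oxidised sterols in the opposite state and turn on exporters such as ABCA1, as well as MYLIP, whose product marks lipoprotein receptors for degradation.

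The 4 members that passed the test after seminal plasma were MYLIP, STARD4, SREBF2 and ABCA1, and the 250 bases before their annotated starts are shown because of the elements searched for in them, of which SREBF2 held the letters of one that SREBP is known to read and ABCA1 those of one that LXR reads, while MYLIP and STARD4 held only NF-Y boxes. They are RefSeq sequences of GRCh38.p14, 5′ to 3′ in the direction of the gene, at chr6:16128836-16129085 (plus strand) for MYLIP, chr5:111512536-111512785 (minus strand) for STARD4, chr22:41832855-41833104 (plus strand) for SREBF2 and chr9:104928156-104928405 (minus strand) for ABCA1. Capitals mark every match, on either strand, to 3 motifs: TCACNCCAC, a form of the sterol regulatory element, CCAAT, the box read by NF-Y, and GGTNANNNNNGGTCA, a DR4 element of the kind that LXR binds.
MYLIP: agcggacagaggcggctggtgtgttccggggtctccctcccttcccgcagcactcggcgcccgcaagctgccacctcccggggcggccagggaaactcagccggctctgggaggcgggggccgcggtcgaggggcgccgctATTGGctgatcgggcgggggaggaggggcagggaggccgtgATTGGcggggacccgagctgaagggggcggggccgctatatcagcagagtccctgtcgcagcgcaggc
STARD4: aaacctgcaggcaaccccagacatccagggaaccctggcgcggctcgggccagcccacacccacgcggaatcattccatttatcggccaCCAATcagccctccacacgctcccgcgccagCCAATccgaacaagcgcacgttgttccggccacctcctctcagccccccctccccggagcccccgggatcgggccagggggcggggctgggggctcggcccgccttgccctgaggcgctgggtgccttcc
SREBF2: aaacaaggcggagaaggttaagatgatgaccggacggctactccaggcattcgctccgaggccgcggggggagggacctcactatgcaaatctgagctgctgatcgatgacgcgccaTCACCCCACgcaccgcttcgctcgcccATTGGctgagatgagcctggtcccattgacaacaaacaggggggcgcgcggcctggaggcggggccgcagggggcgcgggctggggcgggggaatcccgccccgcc
ABCA1: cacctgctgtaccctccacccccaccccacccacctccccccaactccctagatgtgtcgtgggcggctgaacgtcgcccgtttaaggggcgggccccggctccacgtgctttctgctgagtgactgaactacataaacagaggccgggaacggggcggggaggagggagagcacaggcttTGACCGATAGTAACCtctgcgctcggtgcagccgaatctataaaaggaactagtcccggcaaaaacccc
In SREBF2 the sterol regulatory element lay 133 to 125 bases before the start, on the plus strand of the printed sequence, and an NF-Y box lay 106 to 102 bases before it on the opposite strand. STARD4 held NF-Y boxes starting 161 and 130 bases before its start, and MYLIP held them on the opposite strand, starting 109 and 68 bases before its own. In ABCA1 the DR4 letters lay 69 to 55 bases before the start, on the opposite strand. No match overlapped another. Of 27305 promoters of the same length, 0.875% held the sterol regulatory element, 33% the NF-Y box and 0.22% the DR4 element. Of the 29 members with a promoter in the table, 1 held the first (SREBF2), 19 the second (65.5%) and 1 the third (ABCA1). A match describes these letters and is not evidence of binding.

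Seminal plasma arrays 3 and 4 differed from the rest of the series in overall signal. Their median signals were 178 and 131, against 88.1 to 107 on the other 10 arrays, and 8.01% and 12.8% of their probe sets lay under a signal of 16, against 16.3% to 20.2%. On the first principal component, which held 36.5% of the variance, they scored 268.0 and 183.3 and the other arrays -65.4 to 20.5. Below, "without arrays 3 and 4" means a fit that leaves both out. All 12 markers of squamous basal epithelium had a control mean above 1000, and their summed signal was 236406.5 to 377480.1 in controls and 397848.2 to 579847.3 after seminal plasma. Of the lists of other cell types, 3 also lay higher with seminal plasma, the last with ranges that overlap. The summed signal of 6 columnar epithelium markers, mostly KRT18 and KRT8, was 25467 to 32690.5 in controls and 41676 to 52057 after seminal plasma. That of 8 prostate and seminal vesicle markers was 1035.6 to 1412.8 and 1413.0 to 2135.3. That of 7 sperm and testis markers was 315 to 355.9 and 355.3 to 634. The mean signal was higher than in controls for 7 of the 12 squamous markers, all 6 columnar markers, 7 of the 8 prostate and seminal vesicle markers and all 7 sperm and testis markers. Among the defining ones PRM1 had means of 53.4 in controls and 168.7 after seminal plasma, PRM2 8.3 and 10.3, SEMG1 3.5 and 22.1, SEMG2 24.2 and 62.0, MSMB 92.6 and 198.2 and MUC5B 11.6 and 14.4. The means of PRM2 and MUC5B, and that of SEMG1 in controls, lay under 16, the floor applied before log2. ACPP, a prostate marker, had a lower mean after seminal plasma, 98.4 against 166.2 in controls. With TGFB3, 6 fibroblast markers, mostly COL1A1, summed to 2333.0 to 3687 against 931 to 2668 in controls, ranges that overlap. The mean was higher than in controls for 2 of those 6. The 7 leukocyte markers summed to 609 to 863 with TGFB3, against 938 to 1279.9. CD14 had means of 687.6 in controls and 184.3 with TGFB3, while 5 of the 7 leukocyte markers had a higher mean with TGFB3. The part of these signals in the results below was not tested. In RNA from whole cultures, fewer expressing cells and less RNA per cell cannot be told apart.

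**Figure D1:**
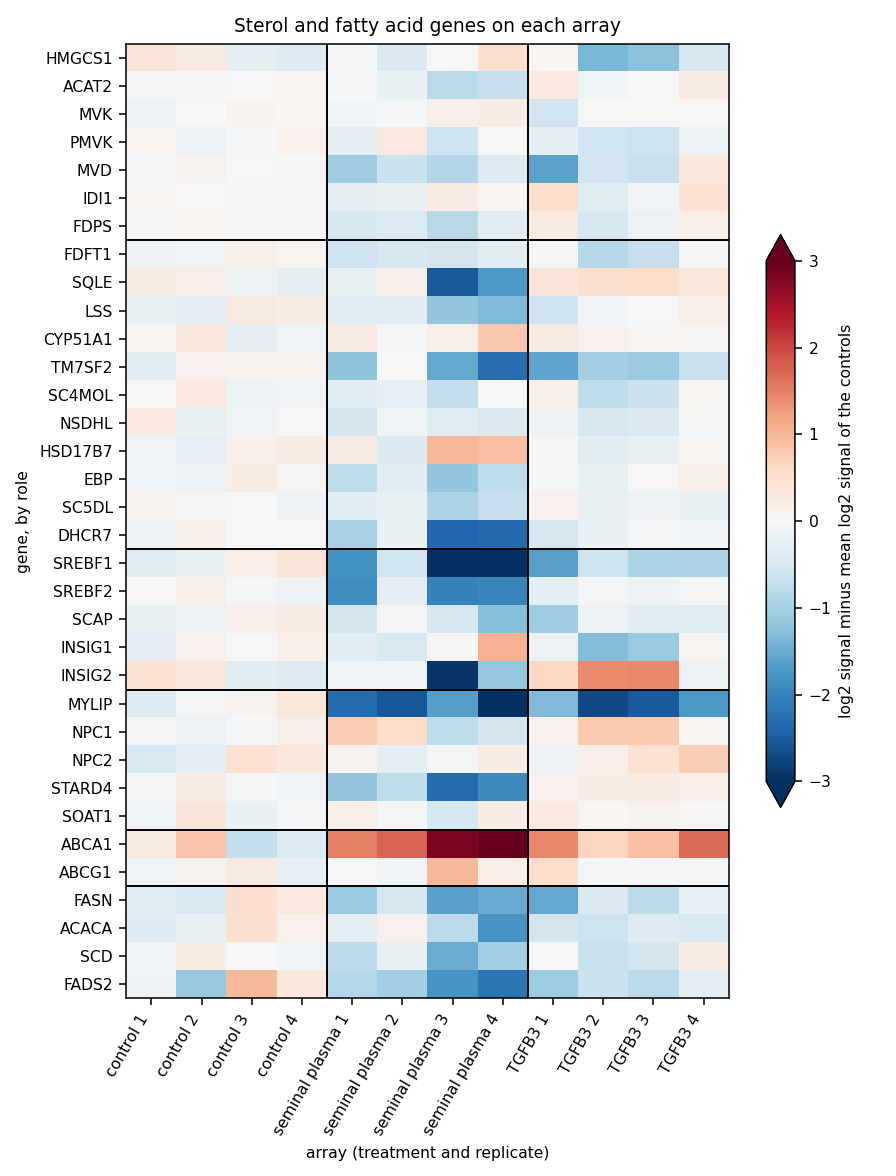
Each row is a gene and each column an array, and the colour gives the log2 signal minus the mean log2 signal of the 4 controls, with black lines between the groups of arrays and between the roles of the genes. MYLIP is blue on all 4 seminal plasma and all 4 TGFB3 arrays, ABCA1 is red on them, and seminal plasma arrays 3 and 4 hold the darkest blues of SREBF1, SREBF2, DHCR7, STARD4 and SQLE.

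After seminal plasma the members lay lower than in controls on balance, with a minority past the test. On the log2 scale STARD4 fell by 1.54, SREBF2 fell by 1.54 and MYLIP fell by 2.39, while ABCA1 rose by 2.35, and the other 30 measured members did not pass (limma on all 12 arrays, Benjamini-Hochberg over 54613 probe sets, adjusted p under 0.05). Among all genes 1.36% passed as lower and 1.84% as higher. The log2 fold change was below 0 in 25 members and above 0 in 9, with a median of -0.54, whereas the median over all genes was 0.11 and 43.0% of genes lay below 0. In 14 members all 4 seminal plasma arrays lay under all 4 controls (ACAT2, MVD, FDPS, FDFT1, LSS, EBP, SC5DL, DHCR7, SREBF1, SREBF2, MYLIP, STARD4, FASN and SCD), which is 41.2% of the members, against 7.57% of all genes and 10.9% of the 13109 genes with a mean signal of at least 100. ABCA1 was the 1 member with all 4 arrays above the controls, as were 8.81% of all genes and 9.91% of those with such a mean signal. With seminal plasma arrays 1 and 2 alone, 17 members lay below all controls, against 12.3% of all genes, and 2 lay above them (NPC1 and ABCA1), against 15.3%. In the fit without arrays 3 and 4, MYLIP and STARD4 fell, the member median was -0.29 and the median over all genes was 0.01. Median centring of the arrays moved the median over all genes from 0.11 to -0.28 and that of the members from -0.54 to -0.92. At an unadjusted p under 0.05, 16 members were lower and 1 was higher, against 12.3% and 14.2% of all genes.

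MYLIP, the ubiquitin ligase also called IDOL, had signals of 517, 652, 733 and 861 in controls 1 to 4, and 137, 116, 215 and 82 on seminal plasma arrays 1 to 4. Every seminal plasma array was far below every control. The log2 fold change was -2.39 ± 0.37 (SE, from a spread estimated over the 12 arrays together; 95% interval -3.20 to -1.58; limma adjusted p 0.0135), a 5.24-fold lower signal, and it was -2.42 without arrays 3 and 4 (adjusted p 0.0397). With any 1 of the 12 arrays removed it still passed. Of its 6 probe sets 5 were lower, with log2 fold changes of -1.90 to -2.78, and 4 of those passed. Those 4 include 228097_at, the dimmest, with a mean signal of 30.6 over the 12 arrays. Its mean with seminal plasma was 7.0, under the floor of 16 applied before log2. The lower probe set that did not pass was 223130_s_at (-2.78, limma adjusted p 0.0509). The also dim 227707_at, with a mean signal of 59.0, went the other way (0.77, adjusted p 0.384).

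STARD4, a cytosolic carrier that moves cholesterol between membranes, had signals of 2470.0, 2972, 2492 and 2319 in the controls and 1122, 1514, 514 and 674 with seminal plasma. The groups did not overlap, and arrays 3 and 4 were the lowest. Its log2 fold change was -1.54 ± 0.29 (95% interval -2.19 to -0.90; limma adjusted p 0.0274), and -0.97 without those arrays (adjusted p 0.0320). The gene has 1 probe set. With 1 array removed at a time it passed in 7 of 12 fits, and was lost without each control in turn and without seminal plasma array 4 (adjusted p 0.0682 to 0.0744).

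The 5 sterol sensing genes had the lowest median of the synthesis and sensing roles, at -1.07, against -0.15 for mevalonate steps, -0.55 for the later cholesterol steps and -1.04 for fatty acid synthesis. Without arrays 3 and 4 that order changed, with -0.40 for sterol sensing, -0.66 for fatty acid synthesis, -0.23 for mevalonate steps and -0.33 for the later cholesterol steps. For SREBF2, which encodes the SREBP most tied to cholesterol genes, the control signals were 1049, 1179, 1022 and 949 and the seminal plasma signals 286, 864, 258 and 264. Arrays 1, 3 and 4 lay close together and far below the controls, and array 2 lay just below the lowest control. The log2 fold change was -1.54 ± 0.34 (95% interval -2.29 to -0.79; limma adjusted p 0.0436). The call rested on 201247_at, and the other probe sets of the gene, 201248_s_at and 242748_at, had -0.24 and 0.84 (adjusted p 0.526 and 0.183). With the mean over the 3 probe sets the value was -0.31 (adjusted p 0.299). With 1 array removed at a time 201247_at passed in 1 of 12 fits, the one without seminal plasma array 2 (adjusted p 0.000259), had an adjusted p of 0.0586 to 0.107 in the others, and did not pass without arrays 3 and 4 (-1.08, adjusted p 0.224).

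SREBF1, whose products act mainly on fatty acid genes, had control signals of 1160.0, 1269, 1693 and 1942 and seminal plasma signals of 425, 978, 187 and 86.1. No seminal plasma array reached the lowest control, but they differed widely among themselves. Its log2 fold change of -2.37 ± 0.61 did not pass (95% interval -3.73 to -1.02; limma adjusted p 0.0612), and was -1.20 without arrays 3 and 4. Of the proteins that hold or carry SREBP, SCAP, its escort, had -0.59 and INSIG2, which retains SCAP in the endoplasmic reticulum, had -1.07, with groups that overlapped. Without arrays 3 and 4 these values were -0.29 and -0.10. INSIG1, the sterol-regulated relative of INSIG2, had signals of 3129, 4183, 3785 and 4201 in controls and 3035, 2735, 3877 and 7793 with seminal plasma. Arrays 1 and 2 lay under all controls and array 4 above all of them, so the log2 fold change was 0.07 ± 0.39 (adjusted p 0.936), and -0.40 without arrays 3 and 4. These values are of 201626_at. The other INSIG1 probe sets, 201627_s_at and 201625_s_at, had -1.35 and -0.96 (limma adjusted p 0.0733 and 0.0936). Without arrays 3 and 4 they had -0.78 and -0.61.

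**Figure D2:**
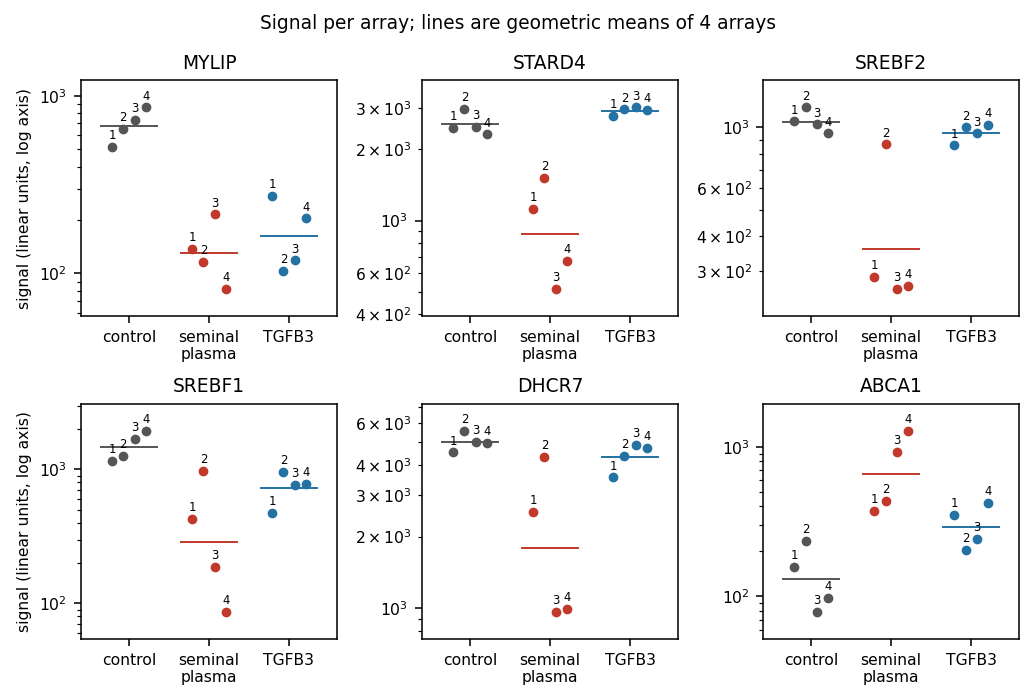
Points are the signals of single arrays on a log axis, numbered by replicate, and lines are the geometric means of 4 arrays per group. Seminal plasma arrays lie below all controls for MYLIP, STARD4, SREBF2, SREBF1 and DHCR7 and above them for ABCA1, with SREBF2 on array 2 (864) near the controls, and the TGFB3 arrays lie below the controls for MYLIP and SREBF1.

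ABCA1, which passes cholesterol and phospholipid to apolipoproteins outside the cell, had control signals of 157, 235, 78.5 and 98.3 and seminal plasma signals of 373, 433, 927 and 1275. All seminal plasma arrays were above all controls, and arrays 3 and 4 were the highest. The gene rose by 2.35 ± 0.47 (95% interval 1.32 to 3.38; limma adjusted p 0.0308), and its next probe set in brightness, 203504_s_at, rose by 1.56 ± 0.29 (adjusted p 0.0271). The dim 216066_at and 1570279_at did not pass (0.57 and 0.07), and with the mean over all 4 probe sets the value was 1.14 and the call was lost (adjusted p 0.0671). With 1 array removed at a time ABCA1 passed in 7 of 12 fits. It was lost without controls 1, 3 or 4 or seminal plasma arrays 3 or 4 (adjusted p 0.0704 to 0.0937), and had 1.63 without both of the latter (adjusted p 0.158). The other exporter, ABCG1, had 0.28 ± 0.26, with overlapping groups, and -0.04 without arrays 3 and 4. Neither of the lysosomal cholesterol transporters passed, NPC2 with 0.01 ± 0.26 and NPC1 with 0.00 ± 0.35. NPC1 signals were 2236, 1926, 2156 and 2485 in controls and 3706, 3229, 1298 and 1491 with seminal plasma. Arrays 1 and 2 lay above all controls and arrays 3 and 4 below them, so that NPC1 had 0.66 without the latter. SOAT1, which esterifies cholesterol for storage, had -0.05 ± 0.20, and 0.05 without arrays 3 and 4.

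Among the 7 genes from acetyl-CoA to farnesyl diphosphate none passed, and log2 fold changes ran from -0.75 to 0.07. FDPS, the farnesyl diphosphate synthase, had control signals of 9868, 9935, 9291 and 9250.4 and seminal plasma signals of 6614, 7181, 5387 and 7690.4. The groups were apart, and its log2 fold change was -0.52 ± 0.19 (limma adjusted p 0.131), and -0.48 without arrays 3 and 4. MVD, the mevalonate diphosphate decarboxylase, had 439, 495, 455 and 445 in controls and 219.6, 295, 248 and 343 with seminal plasma. It was lower on every seminal plasma array (-0.75 ± 0.33, adjusted p 0.195), and had -0.85 without arrays 3 and 4. ACAT2, the cytosolic thiolase of the first step, was also apart at -0.44, and had -0.13 without arrays 3 and 4. HMGCS1, the HMG-CoA synthase that is a standard SREBP target, had 5023, 4551, 3165 and 2928 in controls and 3739, 2837, 3866 and 5305 with seminal plasma. These values overlapped (0.01 ± 0.34, 95% interval -0.74 to 0.76, and -0.23 without arrays 3 and 4). MVK, PMVK and IDI1, the mevalonate kinase, phosphomevalonate kinase and isopentenyl diphosphate isomerase, had 0.07, -0.15 and -0.04, and -0.05, 0.01 and -0.24 without arrays 3 and 4.

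Of the 11 genes from squalene to cholesterol, 9 had log2 fold changes below 0 and none passed. DHCR7, the reductase that makes cholesterol from 7-dehydrocholesterol, had control signals of 4523, 5574, 4996 and 4951 and seminal plasma signals of 2543, 4319.8, 962 and 992. Array 2 was close to the controls and arrays 3 and 4 were far below. Its value was -1.47 ± 0.42 (limma adjusted p 0.0766), and -0.59 without the latter. EBP, the sterol isomerase, came closest to passing (-0.76 ± 0.19, adjusted p 0.0597), with 7006, 6519.9, 8666 and 7521 in controls and 4385, 5876, 3249 and 4336 with seminal plasma. All 4 seminal plasma arrays were lower. FDFT1, the squalene synthase, had -0.51 ± 0.21, LSS, the lanosterol synthase, -0.79 ± 0.28, and SC5DL, a sterol desaturase, -0.55 ± 0.19, each with separate groups. SQLE, the squalene epoxidase, had 10162, 9946, 7755 and 7146 in controls and 7416, 9640.0, 1501 and 2638 with seminal plasma. Its low values were on arrays 3 and 4 (-1.08 ± 0.50, and -0.03 without them). TM7SF2, a sterol reductase, had -1.26 ± 0.41, with array 2 inside the control range. SC4MOL and NSDHL, which act in the removal of methyl groups from lanosterol products, had -0.32 and -0.37. HSD17B7, which acts beside them, and the demethylase CYP51A1 were the 2 with values above 0, at 0.43 and 0.30. Without arrays 3 and 4 HSD17B7 had -0.09, CYP51A1 0.12, LSS -0.33, SC5DL -0.27, TM7SF2 -0.61 and EBP -0.54. FDFT1 had -0.58, SC4MOL -0.29 and NSDHL -0.34 in that fit.

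The 4 measured genes of fatty acid synthesis all had log2 fold changes below 0 with seminal plasma, and none passed. FASN, the fatty acid synthase, had control signals of 5551, 5156, 10069 and 8644 and seminal plasma signals of 3269, 4934, 2285 and 2492. The groups were apart although the controls spanned a wide range (-1.19 ± 0.35, limma adjusted p 0.0818). SCD, which places the first double bond in saturated fatty acids, had 19965, 24619, 20832 and 19296 in controls and 12174, 18210.3, 7467 and 10183 with seminal plasma. The groups were apart here too (-0.89 ± 0.29, adjusted p 0.0982). FADS2, a desaturase of polyunsaturated fatty acids, had -1.45 ± 0.44 and ACACA, which makes malonyl-CoA, -0.68 ± 0.36, with overlapping groups. The controls of FADS2 were 4078, 2061, 8903 and 5605, a wider spread than its seminal plasma values of 2505, 2244, 1333 and 1008. Without arrays 3 and 4 the log2 fold changes were smaller in all 4 genes, at -0.81 for FASN, -0.50 for SCD, -0.93 for FADS2 and -0.08 for ACACA.

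**Figure D3:**
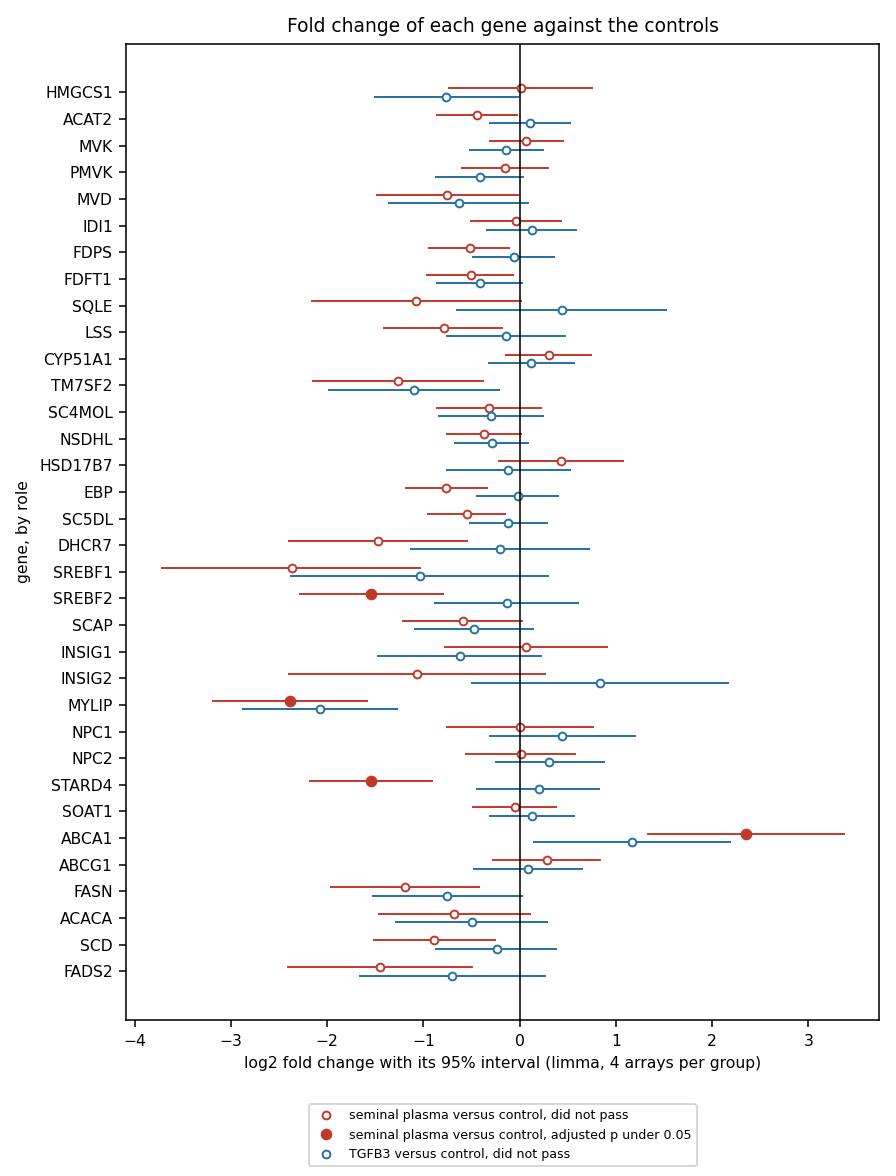
Points are log2 fold changes against the controls with their 95% intervals from limma (4 arrays per group), in red for seminal plasma and blue for TGFB3, and filled points passed an adjusted p of 0.05. The filled points are SREBF2, MYLIP, STARD4 and ABCA1 with seminal plasma, no TGFB3 point is filled, and the MYLIP intervals of both treatments lie wholly below 0.

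Probe sets of the same gene gave different answers with seminal plasma. Of the 11 members with 2 or more probe sets of a mean signal of at least 500, 7 had probe sets that differed by more than 1 on the log2 scale, and 7 had probe sets of opposite sign. The median range within a gene was 1.24 with seminal plasma, 0.48 without arrays 3 and 4, and 0.14 with TGFB3. For SQLE, 213577_at had signals of 3343, 2635, 3298 and 3130.1 in controls and 5727, 4313, 11911 and 12520.4 with seminal plasma. That probe set was higher on every seminal plasma array (1.33 ± 0.32, limma adjusted p 0.0505), whereas 209218_at had -1.08 and 213562_s_at -2.32. For HMGCS1, 205822_s_at had -2.28 ± 0.71 beside 0.01 for 221750_at, and for EBP 202735_at had 0.78 beside -0.76 for 213787_s_at. Probe sets that passed although the gene's brightest one did not were 216607_s_at of CYP51A1 (-0.94, adjusted p 0.0458), 210950_s_at of FDFT1 (-1.62, adjusted p 0.0271), 215649_s_at of MVK (-2.58, adjusted p 0.0459), and 211708_s_at and 211162_x_at of SCD (-2.11 and -2.27, adjusted p 0.0444 and 0.0490). Without arrays 3 and 4, 216607_s_at had -0.98, 210950_s_at -1.08, 211708_s_at -1.26 and 211162_x_at -1.33. These did not pass in that fit (limma adjusted p 0.0896 to 0.168). Over all 74 member probe sets and with all 12 arrays, 11 passed as lower and 2 as higher, against 1.21% and 1.74% of all probe sets. Such spread was also seen outside the members: over 2986 genes with such probe sets, the median range relative to the controls was 0.50, 0.30, 1.20 and 1.08 on seminal plasma arrays 1 to 4, and 0.17 to 0.27 on the control and TGFB3 arrays. By the same measure the 11 members had 0.96, 0.23, 1.71 and 1.71 on seminal plasma arrays 1 to 4, and 0.11 to 0.36 on the control and TGFB3 arrays. The part of this spread in the member values was not tested.

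**Figure D4:**
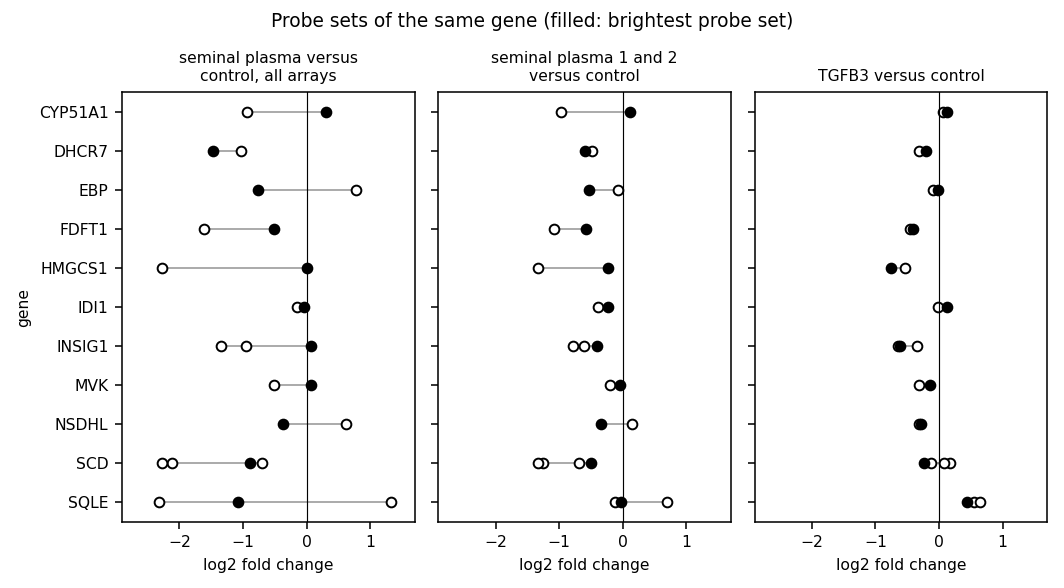
Each point is the log2 fold change of 1 probe set, lines join the probe sets of a gene, and filled points are the brightest probe sets, which represent the genes. The lines are long for SQLE, HMGCS1, EBP and SCD with all seminal plasma arrays (median length over the 11 genes 1.24), shorter for seminal plasma arrays 1 and 2 (0.48) and short for TGFB3 (0.14).

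With TGFB3 alone no member passed the limma test, while 0.285% of all genes did. With array weights 2 members passed, MYLIP and TM7SF2. MYLIP came closest. Its signals were 273, 104, 119 and 205 on TGFB3 arrays 1 to 4, all below the lowest control of 517. The log2 fold change was -2.07 ± 0.37 (95% interval -2.88 to -1.26; limma adjusted p 0.0651). With 1 array removed at a time it passed in 2 of 12 fits, without seminal plasma array 3, which enters the estimate of the spread, and without TGFB3 array 1 (adjusted p 0.0465 to 0.0488). Without both seminal plasma arrays 3 and 4 the adjusted p was 0.0417, and over all settings tried it ran from 0.00203 to 0.238. Its dim probe set 228097_at, with a mean signal of 30.6, passed with all 12 arrays (-1.65 ± 0.22, adjusted p 0.0156). The means of that probe set were 67.4 in controls, 17.3 with TGFB3 and 7.0 with seminal plasma. Signals under 16 were set to 16, which bears on its fold change and its SE. At an unadjusted p under 0.05, 3 members were lower and 1 was higher, against 5.3% and 4.49% of all genes. The member median was -0.14 and that of all genes -0.01.

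In 4 members all TGFB3 arrays lay below all controls (TM7SF2, SREBF1, MYLIP and ACACA), which is 11.8% of the members, against 6.65% of all genes and 9.34% of those with a mean signal of at least 100. In 1 all lay above (SQLE), against 4.74% and 5.87%. SREBF1 had TGFB3 signals of 477, 957, 762 and 783, and its log2 fold change was -1.04 ± 0.61. TM7SF2 had 289.9, 393, 388 and 386 in controls and 122, 176, 168 and 226 with TGFB3. Every TGFB3 array was below every control (-1.10 ± 0.41, limma adjusted p 0.507). SQLE had 11384, 12162, 12397 and 10974 with TGFB3, all above the highest control of 10162 (0.44 ± 0.50). ABCA1 had 352, 204, 242 and 423. These values overlapped the controls in TGFB3 array 2 and had a log2 fold change of 1.17 ± 0.47 (adjusted p 0.564). HMGCS1, INSIG1 and INSIG2 spanned a wider range among the TGFB3 arrays than among the controls. HMGCS1 had 3985, 1468, 1621 and 2696, INSIG1 3385, 1536, 1757 and 4037 and INSIG2 1285, 2236, 2272 and 748 on TGFB3 arrays 1 to 4. In the first 2 genes arrays 2 and 3 were the lowest, and in INSIG2 they were the highest. STARD4 had 2784, 2955, 3013 and 2940.1 and SREBF2 858, 998, 948 and 1018, with log2 fold changes of 0.20 ± 0.29 and -0.13 ± 0.34.

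Both comparisons above share the 4 control arrays, so the treatments were also set against each other directly. STARD4 was the 1 member that passed, lower with seminal plasma than with TGFB3, with a log2 difference of -1.74 ± 0.29 (95% interval -2.38 to -1.09; limma adjusted p 0.0266), against 0.752% of all genes that passed as lower. Its lowest TGFB3 signal was 2784 and its highest seminal plasma signal 1514. With 1 array removed at a time it passed in 7 of 12 fits. It was lost without seminal plasma array 4 and without each TGFB3 array (adjusted p 0.0504 to 0.0839), and passed without seminal plasma arrays 3 and 4 (-1.16, adjusted p 0.0204). SQLE, EBP and STARD4 had all seminal plasma arrays below all TGFB3 arrays, which is 8.82% of the members, against 4.76% of all genes and 6.72% of those with a mean signal of at least 100. SREBF2 had -1.40 ± 0.34 and EBP -0.74 ± 0.19 (adjusted p 0.0641 and 0.0757), and -0.94 and -0.52 without seminal plasma arrays 3 and 4, where SQLE had -0.47 beside -1.51 with all arrays. MYLIP, low after both treatments, had a difference of -0.32 ± 0.37 with an interval from -1.13 to 0.49, and ABCA1 had 1.18 ± 0.47 (adjusted p 0.175; 0.46 without those arrays). The member median was -0.24, against 0.11 for all genes.

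A further 50 genes of the same pathways were all measured. With seminal plasma 3 passed as lower and none as higher, against 1.36% and 1.84% of all genes. LPCAT3, which loads polyunsaturated chains onto phospholipids and is an LXR target, fell by 2.36 ± 0.43 (mean signal 490.3 to 118; limma adjusted p 0.0249). ELOVL3, an elongase of long fatty acids, fell by 2.25 ± 0.38 (152 to 32.1; adjusted p 0.0194). RXRA, the dimer partner of LXR, fell by 1.12 ± 0.24 (3519 to 1694; adjusted p 0.0384). Both LXR genes, NR1H3 and NR1H2, had log2 fold changes of -0.26 ± 0.17 and -0.23 ± 0.26. Without arrays 3 and 4 ELOVL3 passed (-2.12, adjusted p 0.0474), LPCAT3 and RXRA did not (-1.60 and -0.73, adjusted p 0.0909 and 0.0841), and ELOVL1, another elongase, passed as higher (0.62, adjusted p 0.0474). None of the 10 further cholesterol synthesis genes passed, and their median was -0.32. With TGFB3 none of the 50 passed. Between the treatments ELOVL6, which extends palmitate, was higher with seminal plasma by 1.82 ± 0.31 (adjusted p 0.0270), and HACD2, a dehydratase of the elongation cycle, was lower, at -0.73 ± 0.15 (adjusted p 0.0390), against 1.19% of all genes that passed as higher and 0.752% as lower. Without seminal plasma arrays 3 and 4 these values were 1.38 (adjusted p 0.100) and -0.66 (adjusted p 0.0432). The medians of the 50 were -0.21, -0.18 and -0.08 in the 3 comparisons, and -0.14 and 0.02 in the comparisons of seminal plasma with control and with TGFB3 without arrays 3 and 4.

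Of the 34 measured members, the authors' deposited table marks the brightest probe sets of 9 as changed with seminal plasma and 4 with TGFB3. It marks 3955 and 884 of all 54613 probe sets, in either direction. The member counts are by gene and the totals by probe set, so they are not like for like. For seminal plasma the authors' deposited table gives folds of -5.01 for MYLIP, -3.62 for SREBF1, -2.91 for FADS2, -2.68 for STARD4, -2.51 for SREBF2, -2.27 for both DHCR7 and FASN, -2.04 for TM7SF2 and 5.29 for ABCA1. For TGFB3 the authors' deposited table gives -3.95 for MYLIP, -2.11 for TM7SF2, -2.04 for SREBF1 and 2.15 for ABCA1. In that table a negative fold stands for a signal that was lower by that factor. Of the 9, the limma test over all 12 arrays passed 4 with seminal plasma, and of the 4 with TGFB3 it passed none.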

How the data were processed

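Linear intensity values of 54613 probe sets on 12 arrays were deposited by the authors; per the submitters' processing notes GCOS 1.4, MAS5, R 2.6.1, Partek and RMA were used, with no role or order given. The authors' second table repeats these intensities (largest difference 0) and adds a signed fold, a p-value and a call per treatment, by a test that the sources used here do not name. The labels and the design text describe the labelling differently. Of the probe sets 39873 carried 1 symbol, 1522 several, 13164 none and 54 a bare number in place of a symbol, and only the first were used for genes. No columns were left over (0).

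A floor of 16 was applied before log2, with no further normalization. limma 3.58.1 in R 4.3.3 (lmFit, eBayes) fitted the 3 group means to all 12 arrays, two-sided, with Benjamini-Hochberg adjustment over all probe sets and a threshold of 0.05, so a gene has the same standard error in every contrast. The fit was tested on simulated data in which each probe set had the same spread in every group and no array was shifted. That test therefore does not cover arrays that differ in overall signal, as seminal plasma arrays 3 and 4 did. Every member is named, and of 50 further pathway genes those that passed. The members and all gene lists, cell type markers included (Ect1 basal, columnar, leukocyte, sperm, prostate and fibroblast), were chosen with earlier results of these data known. Probe sets beyond those rules, such as those of SQLE, HMGCS1, EBP and INSIG1, and ELOVL1 were named after their values were seen. Alternatives changed the floor, scaling, filter, weights, arrays, block and probe set rule. Promoters came from RefSeq (GRCh38.p14); no genome was used. Same-numbered arrays of different groups had deviations that correlated at -0.091 to 0.154 over 12 pairs, so the numbers were not taken as pairs. The labels give no scan day or batch. The replicates are described as biological, from separate wells.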

Additional observations from a re-analysis of the deposited data

Results flagged for a closer look

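In 4 of 102 groups of 4 arrays, 1 array lay so far from the other 3 that its gap exceeded Dixon's 95% critical share of the group's range for 4 samples, and chance alone flags about 1 in 20 groups. SREBF2 had a signal of 864.35 on seminal plasma array 2, against 258.05 to 285.55 on the other seminal plasma arrays. MVK had 1125.5 on TGFB3 array 1, against 1729.3 to 1737.74 on the other TGFB3 arrays. ABCG1 had 153.08 on TGFB3 array 1, against 101.46 to 102.84. TM7SF2 had 289.94 on control array 1, against 386.09 to 392.62 on the other controls.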

How the results depend on the processing

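With seminal plasma against control, 4 members and 630 genes passed. The member count was 9 without dim probe sets, 1 with the arrays of the 2 groups only and 2 without seminal plasma replicates 3 and 4, and it ran from 1 (without control replicate 1, among others) to 12 (without seminal plasma replicate 2) when 1 array was left out. It was 3 to 5 with the other floors, scalings, array weights or the mean over probe sets, though not always of the same genes. With the mean over probe sets 4 members passed, all lower. MYLIP and STARD4 were among them, and ABCA1 and SREBF2 were not (limma adjusted p 0.0671 and 0.299). The gene count was 267 with no floor, 262 after median centring (95 higher and 167 lower, against 362 and 268), 1374 without dim probe sets, 83 with 2 groups only, 206 without replicates 3 and 4, and 96 to 3368 with 1 array left out (control 4 and seminal plasma 2). For TGFB3 against control, 0 members and 56 genes passed. The member count was 1 without dim probe sets (MYLIP), 2 with array weights (MYLIP and TM7SF2), 1 without seminal plasma replicates 3 and 4, and 0 to 1 with 1 array left out. The gene count was 94 with a floor of 32, 27 with no floor, 28 after median centring, 89 without dim probe sets, 946 with array weights, 146 with 2 groups only, 101 with the mean over probe sets, 148 without replicates 3 and 4, and 14 to 76 with 1 array left out. For seminal plasma against TGFB3, 1 member and 383 genes passed. The member count was 0 after median centring, 2 without dim probe sets, 0 with 2 groups only, and 0 to 8 with 1 array left out. The gene count was 647 with a floor of 32, 79 with no floor, 114 after median centring (40 higher and 74 lower, against 235 and 148), 850 without dim probe sets, 4 with 2 groups only, 141 without replicates 3 and 4, and 37 to 2576 with 1 array left out. No called member changed direction under these settings, and the causes of the changes were not tested, beyond the fewer arrays or probe sets that some settings hold.

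With the replicate number as a replicate block, 0 members passed in any comparison, and 104, 8 and 26 genes passed for seminal plasma against control, TGFB3 against control and seminal plasma against TGFB3. For seminal plasma against control the adjusted p was then 0.0544 for MYLIP, 0.0595 for STARD4, 0.0686 for SREBF2 and 0.0762 for ABCA1. The numbers are shared labels and were not shown to pair the arrays. ABCG1 and TM7SF2 had the lowest mean signals of the members by their brightest probe sets. Their lowest array signals were 89.77 and 73.65, above the floor of 16, so the floor did not change their values.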
